A study of Mus musculus with 18 samples.

Results

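The stefin A genes are a mouse family of small cystatins, inhibitors of cysteine proteases of the papain type such as cathepsins B, H, L and S. 7 of the genes described here lie together on one chromosome and the last, Cst6, lies on another. The 8 genes, of 41605 gene identifiers in the count files, were Stfa1, Stfa2, Stfa2l1, Stfa3, BC100530, BC117090, Gm5483 and Cst6. They were chosen by name, with Ensembl identifiers matched to GENCODE M21 symbols, and were selected on earlier results of these libraries in which several of them were higher in Detergent B than in PBS. Their levels and fold changes in Detergent B against PBS are therefore given as a description with no p-value, and the count of calls in that contrast is printed only beside the share of all genes called.

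The libraries came from skin of C57BL/6 mice aged 8-12 weeks, and the series compares 2 household laundry detergents with phosphate-buffered saline (PBS). There were 6 libraries labelled PBS, 6 labelled Detergent A and 6 labelled Detergent B. No group carried a transgene or an altered allele per the labels. Dose, duration, body site and whether each library is its own animal are not in the labels, so p-values measure the spread between these libraries. Total counts ranged from 17312623 to 29599018 per library. Of the 8 genes, 7 passed the filter on low counts and were tested, and Gm5483 did not. Levels are CPM, the counts of a gene relative to its library's total with totals scaled by the trimmed mean of M-values (TMM), and means are given ± SD over 6 libraries.

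Stefins bind the active-site cleft of a cysteine protease with their amino end and 2 hairpin loops, and act inside the cell because they carry no signal peptide. In the epidermis the human counterpart, cystatin A, is a constituent of the cornified envelope of the outermost cells. Several mouse stefin A genes are also active in neutrophils. Cystatin M/E, encoded by Cst6, is instead secreted by differentiating keratinocytes. It inhibits cathepsin L and legumain, which act upstream of transglutaminase 3 during envelope formation, and mice without it have a severe scaling defect.

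The 7 stefin genes lie within 298.6 kb on chromosome 16 of GRCm38, from 36156811 to 36455392, and each has a coding transcript of 3 exons. On the forward strand are Stfa2l1 (36156811 to 36161953), Gm5483 (36184212 to 36188111; Cstdc4 in RefSeq) and Stfa1 (36276951 to 36285373). On the reverse strand are BC117090 (36321665 to 36334332), BC100530 (36359382 to 36367748; Cstdc5 in RefSeq), Stfa2 (36403992 to 36408457) and Stfa3 (36450537 to 36455392). Cst6 lies on the reverse strand of chromosome 19, from 5344705 to 5349574. All 8 are annotated as protein-coding.

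The first hairpin loop enters the protease cleft and follows a pattern of glutamine, valine and glycine with 1 residue of any kind between them. The 15 coding bases of this loop, found by translating each coding transcript of GENCODE M21, are shown 5′ to 3′ because they are the part of the gene tied to inhibition. Capitals mark the bases that differ from Stfa1.
Stfa1: caagtcgtcgctgga
Gm5483: caagtcgtcgctgga
Stfa3: caagtcgtTgctgga
BC100530: caagCcgtcgctgga
BC117090: caagCcgtcgctgga
Stfa2: caagtcgtcCAAgga
Stfa2l1: caagtcgtcCAAgga
Cst6: caGCtGgtGgctggC
The loop of Gm5483 had 0 differences from that of Stfa1. BC100530, BC117090 and Stfa3 each had 1 difference, Stfa2 and Stfa2l1 shared the same 3, and Cst6 had 5. These are counts of bases and not of residues. When translated, the loop of Stfa3 is the same as that of Stfa1. Those of BC100530, BC117090, Stfa2, Stfa2l1 and Cst6 each differ from it in 1 residue. All 8 genes kept the pattern, and the files hold no measure of inhibition.

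Coding sequences were compared over their aligned overlap, so unmatched ends, such as those of the longer Cst6, are left out. On that measure BC100530 was 97.9% identical to Stfa1 and 95.6% identical to BC117090. Stfa2 was 96.4% identical to Stfa2l1. Stfa3 was 79.7 to 83.7% identical to each of the other 6 stefins, and Cst6 was 38.2 to 44.0% identical to the stefins. This bears on the counts, because a read that fits 2 copies can be dropped or assigned to either, and the treatment of such reads is not given in the sources used here. Of all 50-base stretches of the coding transcript, 48.9% of those of BC100530 also occur, on either strand, in a transcript of another gene. Those other genes include Gm15845, an antisense gene that overlaps BC100530 in position, so part of its share may not reflect a second copy. The share was 35.6% for Gm5483, 33.7% for BC117090, 26.9% for Stfa1, 24.6% for Stfa2l1 and 15.9% for Stfa2. It was 0% for Stfa3 and 0% for Cst6, so no 50 bases of either transcript fit another gene exactly. With 100-base stretches the share fell to 22.3% for BC100530, 13.5% for BC117090, 11.1% for Gm5483 and 5.6% for Stfa1, and it was 0% for the other members. The single-gene values of BC100530, BC117090, Stfa1, Stfa2, Stfa2l1 and Gm5483 are uncertain to that extent.

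The stretch before the transcription start was compared because several stefins moved together in these libraries and others did not. The RefSeq promoter table (GRCm38.p6; 250 bases before to 50 after each start) held 6 members, without BC117090 and Cst6. The 250 bases upstream are shown 5′ to 3′ on the gene's strand for Stfa3, an abundant stefin, and for Stfa2l1 and Gm5483, the rare ones, with the letters TTTAAAA in capitals. They span chr16:36455393-36455642 (reverse strand), chr16:36156561-36156810 (forward strand) and chr16:36183962-36184211 (forward strand).
Stfa3: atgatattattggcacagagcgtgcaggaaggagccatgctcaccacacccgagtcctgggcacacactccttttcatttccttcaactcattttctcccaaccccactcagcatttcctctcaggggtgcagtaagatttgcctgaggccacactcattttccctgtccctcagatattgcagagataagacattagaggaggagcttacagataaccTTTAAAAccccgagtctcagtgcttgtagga
Stfa2l1: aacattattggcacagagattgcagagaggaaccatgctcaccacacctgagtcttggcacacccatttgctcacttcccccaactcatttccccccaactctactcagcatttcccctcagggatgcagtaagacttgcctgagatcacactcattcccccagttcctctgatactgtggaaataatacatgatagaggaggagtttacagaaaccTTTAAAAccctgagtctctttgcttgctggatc
Gm5483: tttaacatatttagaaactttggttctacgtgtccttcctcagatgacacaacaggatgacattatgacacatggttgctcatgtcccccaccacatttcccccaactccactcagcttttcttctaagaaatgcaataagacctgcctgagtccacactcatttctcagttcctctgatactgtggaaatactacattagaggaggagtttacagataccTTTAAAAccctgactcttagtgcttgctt
The 7 letters TTTAAAA were present in 6 of the 6 member windows of 300 bases, on either strand, against 8.74% of 32841 RefSeq promoters. The longest run shared by the 6 upstream sequences was ACCTTTAAAACC, which contains those 7 letters and occurs in 0.0335% of the promoters, 11 of 32841. As the run was defined by being in all 6, and the 11 include these 6 and Gm5416, that share is not an independent background. TATAAA was in 0 of 6 (13.6% of all promoters). The AP-1 letters TGANTCA were in 1 of 6 (7.81%), the STAT letters TTCNNNGAA in 1 of 6 (8.3%) and the C/EBP letters TTNNGNAA in 5 of 6 (40.7%). All motifs were searched on both strands, and TTTAAAA and the 12-letter run were looked for after the sequences had been seen. The TTTAAAA run was thus in the windows of abundant and rare members alike. Of the 2 other stefin genes of the interval, Gm5416 had both runs and 2010005H15Rik had neither, with a window 39.5 to 44.9% identical to the others. Over their aligned overlap, the windows of Stfa2 and Stfa2l1 were 92.6% identical and those of Stfa1 and BC100530 96.1%. That of Gm5483 was 63.3 to 70.7% identical to the other 5 on the same measure.

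Per length of transcript, 2 stefins carried most of the signal. In PBS skin, Stfa3 stood at 305 ± 147 CPM per kilobase of merged exons, Cst6 at 247 ± 72.7 and BC100530 at 187 ± 111, and these 3 did not differ beyond their spread. Stfa1 (33.9 ± 21.1), Stfa2 (15.8 ± 9.08), BC117090 (4.79 ± 2.46), Stfa2l1 (0.724 ± 0.64) and Gm5483 (0.0535 ± 0.0466) followed on the same scale. The neighbours Stfa1 and Stfa2 overlapped in range, at 11.3 to 59.2 and 8.35 to 28.5, while Stfa2 and BC117090 did not, since BC117090 reached 8.19. In Detergent B the order per kilobase was Stfa3 (1552 ± 359), BC100530 (1031 ± 314), Cst6 (288 ± 73.7), Stfa1 (176 ± 77.9), Stfa2 (87.8 ± 42.1), BC117090 (mean 28.2, range 9.89 to 43.1), Stfa2l1 (0.863 ± 1.2) and Gm5483 (0.221 ± 0.269). Stfa3 and BC100530 overlapped there, and both exceeded Cst6 in each of the 6 libraries. In Detergent A the mean of Stfa3 was 841 ± 370 and that of BC100530 734 ± 466 CPM per kilobase, again with overlapping ranges, and Cst6 was at 266 ± 103. With the length of the coding transcript in place of merged exons, chosen after seeing the data, BC100530 stood at 937 ± 594 in Detergent A and Gm5483 at 1.69 ± 1.95, above Stfa3 (841 ± 370) and Stfa2l1 (1.37 ± 1.81) respectively. Gm5483 also came above Stfa2l1 in Detergent B (0.994 ± 1.21 against 0.863 ± 1.2) but not in PBS (0.241 ± 0.21 against 0.724 ± 0.64), so the order of these 2 rare genes depends on the length used.

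**Figure D1:**
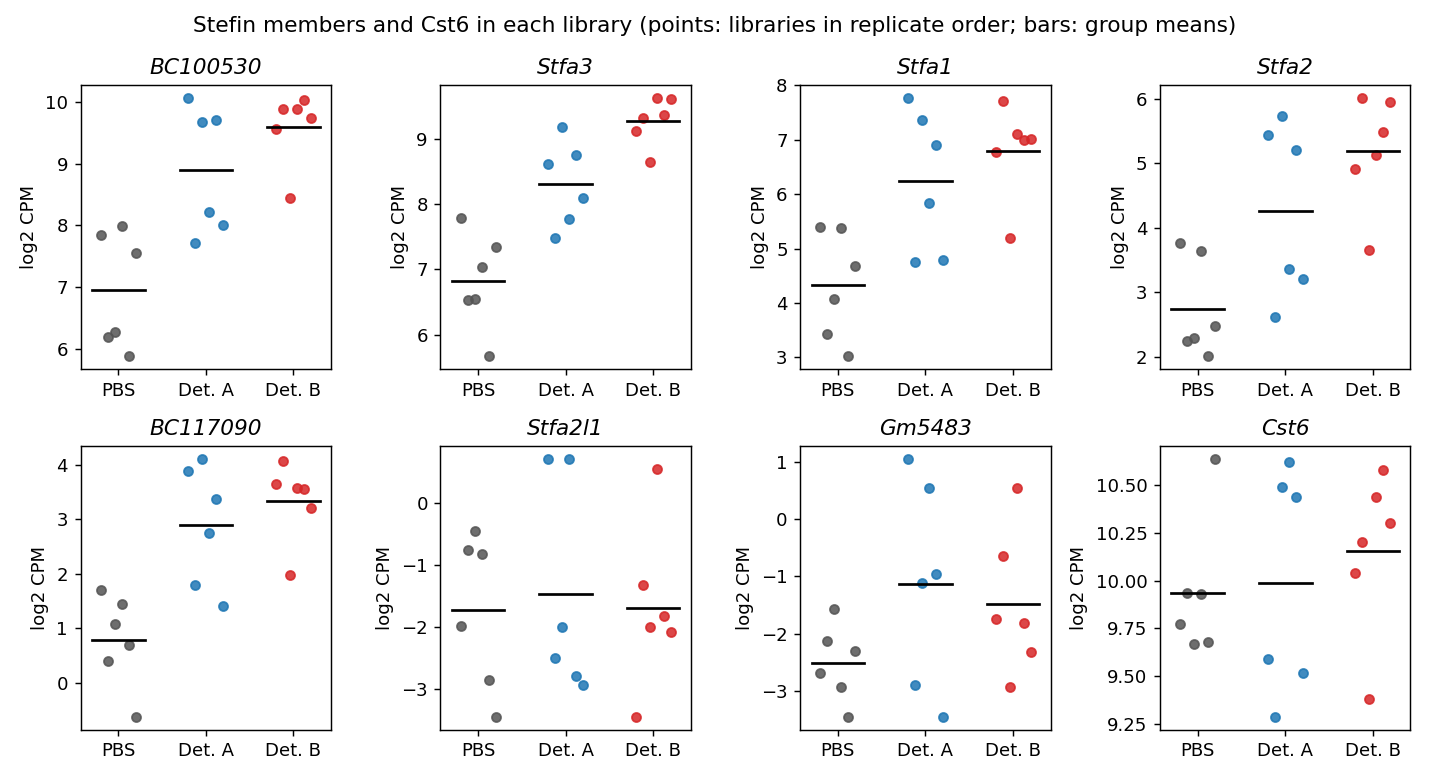
Level of each gene in each library on a log2 CPM axis, with 6 libraries per group in replicate order from left to right and a bar at the group mean; each panel has its own axis range. The abundant stefins of the upper row and BC117090 sit higher in both detergents, with 3 low and 3 high Detergent A libraries for BC100530 and Stfa2, while Cst6 overlaps between groups.

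BC100530 was the most counted stefin. Its lowest, median and highest CPM were 59.4, 133 and 255 in PBS, 211, 557 and 1065 in Detergent A, and 348, 898 and 1041 in Detergent B. Every Detergent B library and 5 of 6 Detergent A libraries lay above the highest PBS library. Means were 148 ± 87.5 CPM in PBS, 580 ± 368 in Detergent A and 814 ± 248 in Detergent B. The log2 fold change was 1.97 (SE 0.45) for Detergent A and 2.46 (SE 0.46) for Detergent B against PBS.

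Stfa3 had the smallest relative spread of the stefins in each group, with an SD of 48.2% of the mean in PBS, 44.0% in Detergent A and 23.1% in Detergent B. Its lowest, median and highest CPM were 50.9, 113 and 222 in PBS, 179, 333 and 584 in Detergent A, and 400, 652 and 794 in Detergent B. All 6 Detergent B libraries and 4 of 6 Detergent A libraries exceeded the highest PBS library. The log2 fold change was 1.46 (SE 0.32) for Detergent A and 2.35 (SE 0.33) for Detergent B against PBS. Among the 7 stefin members, its transcript alone shares no 50-base stretch with another gene.

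Stfa1 and Stfa2 showed the same order of groups at lower levels. Stfa1 had a lowest, median and highest CPM of 8.05, 21.1 and 42.0 in PBS, 26.7, 88.3 and 218 in Detergent A, and 36.5, 129 and 209 in Detergent B. Stfa2 had 3.93, 5.14 and 13.4 CPM in PBS, 6.04, 23.5 and 53.2 in Detergent A, and 12.5, 39.8 and 64.6 in Detergent B. Both overlapped PBS in each detergent, with 5 of 6 Detergent B libraries above the highest PBS library for each gene. Against PBS, the log2 fold change of Stfa1 was 2.08 (SE 0.54) for Detergent A and 2.37 (SE 0.55) for Detergent B, and that of Stfa2 was 1.81 (SE 0.53) and 2.46 (SE 0.54).

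BC117090, at the foot of the group of stefins that were higher, had a lowest, median and highest CPM of 0.559, 1.77 and 3.17 in PBS, 2.58, 8.4 and 17.2 in Detergent A, and 3.83, 11.7 and 16.7 in Detergent B. Every Detergent B library and 5 of 6 Detergent A libraries lay above the highest PBS library. Its log2 fold changes were 2.26 (SE 0.47) and 2.52 (SE 0.47) for Detergents A and B. Its sequence is close to that of BC100530, which had many more counts, so the 2 genes cannot be told apart in the shared stretches.

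Stfa2l1 and Gm5483 were close to the limit of detection, with 156 and 144 counts in all 18 libraries. Stfa2l1 reached 0.639 CPM in PBS, 1.55 in Detergent A and 1.37 in Detergent B, and it had no count in PBS replicate 6 and Detergent B replicate 1. A count of 0 there allows up to 0.168 and 0.156 CPM, from 3 counts, as counting error only. Gm5483 reached 0.246 CPM in PBS, 2.0 in Detergent A and 1.37 in Detergent B, with no count in PBS replicate 5 and Detergent A replicate 6, which allows up to 0.139 and 0.119 CPM. Their group medians were 0.316, 0.122 and 0.175 CPM for Stfa2l1 and 0.0879, 0.396 and 0.2 CPM for Gm5483 in PBS, Detergent A and Detergent B. The log2 fold change of Stfa2l1 was 0.88 (SE 0.92) for Detergent A and 0.18 (SE 0.98) for Detergent B. The sign of the second became negative without PBS replicate 5 (-0.04), PBS replicate 6 (-0.05) or Detergent B replicate 4 (-0.93).

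For Cst6 the lowest, median and highest CPM were 812, 925 and 1598 in PBS, 624, 1079 and 1574 in Detergent A, and 666, 1219 and 1533 in Detergent B. The 3 ranges overlapped, and no detergent library exceeded the highest PBS library. The log2 fold change was 0.11 (SE 0.25) for Detergent A and 0.23 (SE 0.25) for Detergent B against PBS. For Detergent A the 95% interval ran from -0.42 to 0.64, with an edgeR adjusted p of 0.8492. Without Detergent A replicate 4 that value was -0.03, so it has no settled sign.

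In Detergent B against PBS, 5 of the 7 tested members passed the edgeR threshold (Benjamini-Hochberg adjusted p under 0.05 over 16836 genes) as higher, where 1.97% of all genes did, and 0 were lower, where 1.08% of all genes were. The 5 were BC100530, Stfa3, Stfa1, Stfa2 and BC117090. For BC100530, Stfa3 and BC117090 every Detergent B library was above every PBS library, which held for 1.72% of all genes. As this contrast chose the members, these counts follow from the choice and nothing is read from them. The 5 fold changes ranged from 5.096 for Stfa3 to 5.752 for BC117090. The count was 1, Stfa3, without PBS replicate 2 or without PBS replicate 3, and 3 without PBS replicate 5, Detergent B replicate 2, Detergent B replicate 5 or Detergent B replicate 6. Calls over all genes went from 514 to between 28 and 153 in those 6 fits. With a hair keratin score as a covariate the count was 0, and 0 of all genes were called.

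Detergent A was compared with the same 6 PBS libraries, so it is not independent of the contrast that chose the genes. 0 of the 7 tested members passed as higher, where 0.0535% of all genes did, and 0 passed as lower, where 0.137% did. At an unadjusted p under 0.05, 5 of 7 were higher, against 10% of all genes, and 0 had every Detergent A library above every PBS library, against 0.404%. The edgeR adjusted p was 0.0548 for Stfa3 and for BC117090, 0.05768 for BC100530, 0.0722 for Stfa1, 0.09761 for Stfa2 and 0.6307 for Stfa2l1. The 95% intervals of the log2 fold change lay above 0 for Stfa3 (0.79 to 2.14), BC117090 (1.26 to 3.26), BC100530 (1.01 to 2.94), Stfa1 (0.92 to 3.24) and Stfa2 (0.68 to 2.95). The median log2 fold change of the 7 tested members was 1.81, against -0.01 over all genes tested. DESeq2 and limma voomWithQualityWeights each called these 5 genes, and over all genes they called 797 and 3914, against 32 by edgeR. The count was also 5 without Detergent A replicate 2 (847 of all genes called) or without Detergent A replicate 6 (769). It was 3 without PBS replicate 6 (888) or without Detergent B replicate 4 (188), and 1 without Detergent B replicate 3 (36). The calls for Detergent A thus depended on the setting, and they came with more calls over all genes. The log2 fold changes of these 5 genes did not change sign in any setting run, while those of Stfa2l1 and Cst6 did.

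The detergents were then set against each other, with the Detergent B libraries shared with the choosing contrast. 0 of 7 members passed as higher in Detergent B than in Detergent A by edgeR, as did 0% of all genes, and DESeq2 and voom each gave 0 members. At an unadjusted p under 0.05, 1 of 7 was higher, against 1.79% of all genes, and 0 had every Detergent B library above every Detergent A library, against 0.0297%. The 1 gene was Stfa3, with a log2 difference of 0.88 (SE 0.31; 95% interval 0.22 to 1.55; unadjusted p = 0.01118, adjusted p = 0.9887 by edgeR). The intervals of the other members included 0 and were wide, from -0.45 to 1.43 for BC100530, from -0.82 to 1.40 for Stfa1, from -0.44 to 1.73 for Stfa2 and from -0.67 to 1.20 for BC117090. That of Cst6 was narrower, from -0.41 to 0.65.

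**Figure D2:**
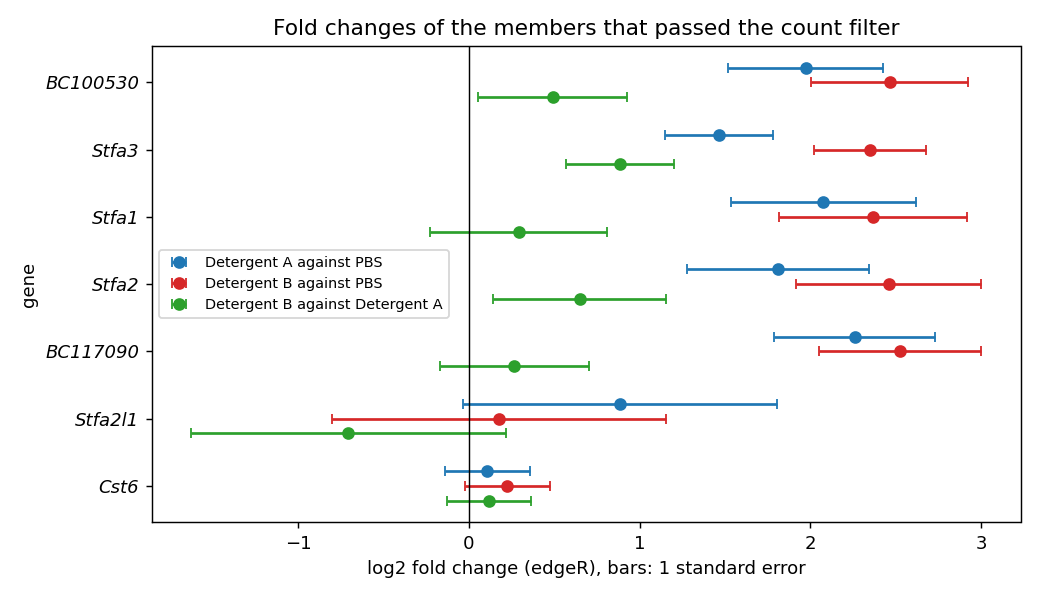
Log2 fold change of the 7 tested members in the 3 contrasts, from the edgeR fit to 18 libraries, with bars of 1 standard error. For 5 stefins both detergent contrasts lie between 1.46 and 2.52, while Stfa2l1 has wide bars and Cst6 lies near 0.

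Because near-identical copies can trade reads, the counts of the 7 chromosome 16 genes were summed in each library. The sum covers only reads traded among these 7 genes. It does not recover reads that were dropped or assigned to other genes with shared stretches, such as Gm15845 and 2010005H15Rik. The sum was 307 ± 159 CPM in PBS, 1065 ± 599 in Detergent A and 1632 ± 441 in Detergent B. In PBS the libraries had 511, 184, 196, 443, 124 and 382 CPM from replicate 1 to replicate 6. In Detergent A they had 1739, 426, 1637, 592, 1431 and 568 CPM, and in Detergent B 1462, 1876, 801, 1927, 1891 and 1835 CPM. All 6 Detergent B libraries exceeded the highest PBS library, while Detergent A replicate 2 did not. Detergent A was the most spread group, with 3 libraries at 1431 to 1739 CPM and 3 at 426 to 592. Fitted as 1 feature, the sum was 3.472-fold higher in Detergent A and 5.318-fold higher in Detergent B than in PBS.

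The make-up of that sum was similar in the 3 groups. BC100530 gave 46.6% ± 6.67 of the stefin counts in PBS, 52.4% ± 6.06 in Detergent A and 49.3% ± 4.07 in Detergent B. Stfa3 gave 42.5% ± 7.25, 35.9% ± 8.85 and 40.2% ± 5.83. Stfa1 gave 7.52% ± 1.4, 8.61% ± 2.76 and 7.35% ± 2.13, and Stfa2 2.5% ± 0.583, 2.18% ± 0.714 and 2.43% ± 0.796. The differences between groups in each of these shares were smaller than the SD within the groups, and they were not tested.

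The group means were subtracted, and the remaining log2 CPM values of the members were compared over the 18 libraries. These correlations are a description, and the genes share libraries, depth and, in part, sequence. Stfa1 had a Pearson r of 0.96 with BC100530, 0.93 with Stfa2, 0.83 with Stfa3 and 0.80 with BC117090. Stfa3, which shares no 50-base stretch with them, had 0.87 with BC100530 and 0.82 with Stfa2. BC117090 was less like these, with 0.68 with BC100530 and 0.52 with Stfa3. Stfa2l1 and Gm5483 had r = 0.76 with each other. Both had their highest counts, 25 to 37, in the same libraries, Detergent A replicates 1 and 4 and Detergent B replicate 4. Stfa2l1 had 0.15 with Stfa2, its closest copy in sequence, and 0.04 with Stfa3. Gm5483 lay between, with 0.59 with Stfa1 and 0.55 with BC117090. Cst6 had 0.50 with Stfa3 and with BC100530, and 0.08 with Stfa2l1. Likeness in sequence and likeness in level therefore did not run together for the Stfa2 and Stfa2l1 pair, although the few counts of Stfa2l1 limit its r.

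**Figure D3:**
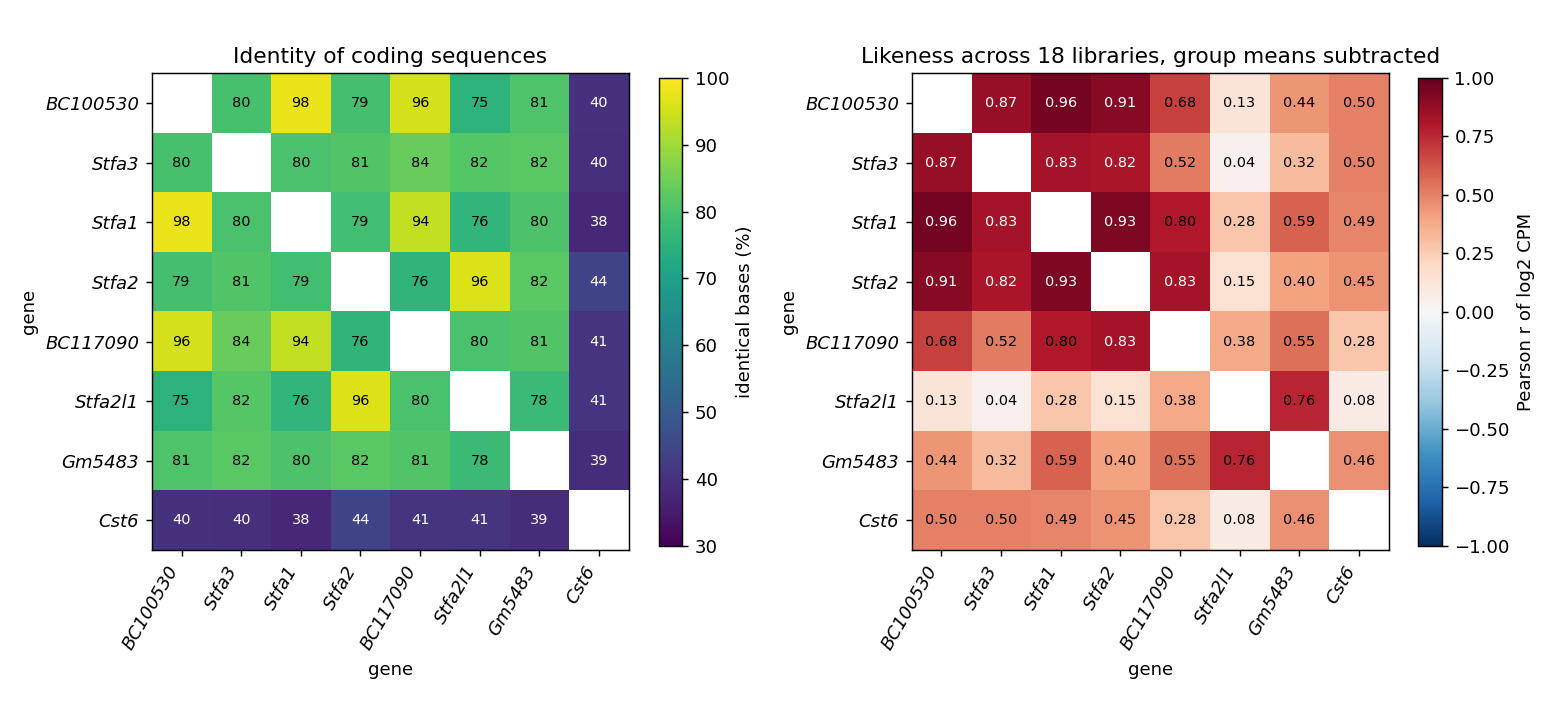
Left, percentage of identical bases in the aligned overlap of the coding sequences of each pair of genes. Right, Pearson r of log2 CPM over 18 libraries after group means were subtracted. Stfa2 and Stfa2l1 are 96% identical at left but have r = 0.15 at right, while Stfa1, Stfa2, Stfa3 and BC100530 have r of 0.82 or more with each other.

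The genes most like Stfa3, BC100530, Cst6 and Stfa2l1 in the same measure were taken among 15170 other genes. For Stfa3 they were Wfdc12 (r = 0.941), a whey acidic protein inhibitor, Spink7 (0.935), a Kazal-type inhibitor of serine proteases, the aldehyde oxidase Aox4 (0.931), the retinol-binding protein Rbp2 (0.92) and Olah (0.914), a fatty acid thioesterase. For BC100530 they were Rbp2 (0.949), Tcf23 (0.927), the epidermal fatty acid-binding protein Fabp5 (0.911), Ces2g (0.909) and Mpp1 (0.899). For Cst6 they were Cdc42ep5 (0.965), Lgals3 (0.958), which encodes galectin-3, Coq6 (0.954), Fam213b (0.949) and Ubxn6 (0.941). For Stfa2l1, whose few counts limit its r, they were Il1b (0.825), Hdc (0.797), Coa7 (0.782), Thap12 (0.779) and Srgn (0.76). Rbp2 was on the lists of both Stfa3 and BC100530. The lists of Cst6 and Stfa2l1 had no gene in common with those or with each other.

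Keratins that mark particular states of the epidermis and the hair follicle were measured beside the members, since these move between the same libraries. In bulk skin, fewer cells of a type and less RNA per cell cannot be told apart. The 4 stress keratins Krt6a, Krt6b, Krt16 and Krt17, which keratinocytes make when injured or activated, summed to 1843 to 5763 CPM in PBS, 1554 to 15429 in Detergent A and 2269 to 9496 in Detergent B. 0 of 4 passed the edgeR threshold in either contrast with PBS. The estimates of Krt6a, Krt6b and Krt16 were 2.758-, 4.313- and 3.156-fold in Detergent A and 1.748-, 3.332- and 2.677-fold in Detergent B. Krt17, at 1623 of a summed mean of 3577 CPM in PBS, had 0.8559- and 0.8186-fold. With group means subtracted and log2 sums, BC117090 had r = 0.93 and rho = 0.92 with them over 18 libraries (permutation within groups, 2-sided, adjusted p 0.00048 and 0.00048 over 24 relations), and r = 0.91 without the 2 farthest libraries. For Stfa1 the values were r = 0.83 and rho = 0.82 (adjusted permutation p 0.0024 and 0.003), for Stfa2 0.81 and 0.83 (adjusted permutation p 0.0034 and 0.003), and for BC100530 0.72 and 0.75 (adjusted permutation p 0.011 and 0.0095). Stfa3 had r = 0.51 and rho = 0.53 with the stress keratins (adjusted permutation p 0.11 and 0.1), and 0.75 and 0.76 with 12 markers of differentiated keratinocytes (adjusted permutation p 0.0088 and 0.0051). Cst6 had r = 0.76 and rho = 0.73 with the same markers (adjusted permutation p 0.0096 and 0.018). These markers summed to 12743 to 28325 CPM in PBS, 19156 to 44714 in Detergent A and 28039 to 47549 in Detergent B. Of the 12, 7 passed the edgeR threshold as higher in Detergent B, where 1.97% of all genes did. In Detergent A 0 passed as higher, where 0.0535% of all genes did, and 11 of the 12 estimates were positive. Without the 2 farthest libraries, r was 0.78 for Stfa1, 0.81 for Stfa2 and 0.65 for BC100530 with the stress keratins, and 0.68 for Stfa3 and for Cst6 with the differentiated markers. These relations were chosen after the values were seen, and their part in the differences between groups was not tested.

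**Figure D4:**
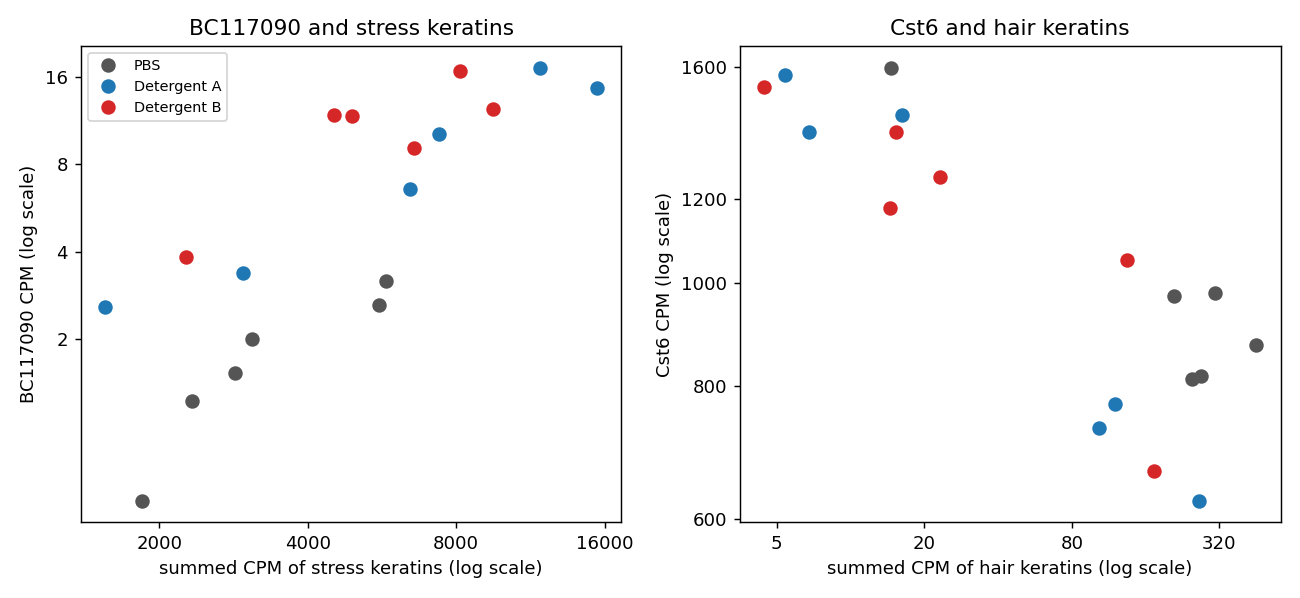
Left, BC117090 against the summed stress keratins; right, Cst6 against the summed hair keratins; each point is a library, both axes are CPM on log scales and colours are groups. BC117090 tends to be higher where the stress keratins are higher (r = 0.93 with group means subtracted), and Cst6 is at 1179 CPM or more where hair keratins are at 23.2 CPM or less.

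The hair keratins, which build the hair shaft during growth, varied widely between libraries. The 10 measured summed to 14.6 to 451 CPM in PBS, 5.42 to 264 in Detergent A and 4.45 to 173 in Detergent B, and 0 of 10 passed the edgeR threshold in either contrast with PBS. The libraries fell into 2 separate sets, so no pooled correlation is given. In 8 libraries the hair keratins summed to 4.45 to 23.2 CPM, and Cst6 ranged from 1179 to 1598 CPM. In the other 10 they summed to 103 to 451 CPM, and Cst6 ranged from 624 to 1053 CPM. The 8 were 1 PBS, 3 Detergent A and 4 Detergent B libraries, so the sets are unevenly spread over the groups. Within the 8, Cst6 and the hair keratins had r = -0.53 and rho = -0.33 (exact permutation, p = 0.17 and 0.43), and r = -0.2 without the 2 farthest. Within the 10, r was 0.13 and rho 0.27 (permutation p = 0.71 and 0.45), and r was -0.08 without the 2 farthest. Neither passed adjustment over the 2 sets, with adjusted p of 0.34 and 0.71 for r and 0.45 and 0.45 for rho. The sets were defined by hair keratin level, so each holds only part of the hair keratin range, in 8 or 10 libraries. These p-values therefore cannot decide whether Cst6 and the hair keratins are related over all libraries. Between the sets the Cst6 ranges did not overlap, and that difference was not tested. With a hair keratin score as a covariate, the log2 fold change of Cst6 was -0.52 in Detergent A and -0.39 in Detergent B. Stfa1, Stfa2, Stfa3, BC100530 and BC117090 kept their sign in that fit, at 1.30 to 1.96 in Detergent A and 1.91 to 2.21 in Detergent B. Stfa2l1 was at -0.43 in Detergent B. In both contrasts 0 members passed, as did 0 of all genes.

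Neutrophil markers were measured because stefin A genes are active in those cells. The 20 listed markers summed to 106 to 171 CPM in PBS, 112 to 360 in Detergent A and 137 to 476 in Detergent B, and 0 of the 12 tested passed in either contrast with PBS. Of 9 defining markers 3 passed the count filter. Ly6g, which defines mouse neutrophils, had 10 counts in all and was at 0 in 13 of 18 libraries. Ngp was at 0 in 12, Mpo in 8, Elane in 7 and Ltf in 5 of 18, and none of these exceeded 0.334 CPM in any library. The 9 markers summed to 13.1 to 24.2 CPM in PBS, 11.1 to 67.4 in Detergent A and 20.1 to 41.0 in Detergent B, of which the mean of Cxcr2 alone was 16.4, 33.4 and 27.1 CPM. 0 of the 3 tested passed the edgeR threshold in either detergent. With group means subtracted, r with this sum ranged from 0.27 for Stfa3 to 0.65 for Gm5483, with 0.62 for BC117090 and 0.59 for Stfa1. Without the 2 farthest libraries it was 0.71 for Stfa1, 0.69 for Stfa2, 0.66 for BC117090, 0.55 for BC100530 and 0.51 for Stfa3. For Gm5483, Cst6 and Stfa2l1 it was 0.42, 0.26 and 0.21. None passed adjustment over the 24 relations, with permutation adjusted p from 0.071 to 0.39 for r and from 0.055 (BC117090, rho = 0.64) to 0.3 for rho. The part of neutrophils in the stefin values was not tested.

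The stefin interval holds 23 annotated genes, 16 of which are not members. Of the 16, Gm5416 (Csta3 in RefSeq) and 2010005H15Rik (Csta2) are protein-coding stefin genes too. Gm5416 had 1.04 ± 1.08 CPM in PBS, 6.94 ± 7.03 in Detergent A and 5.66 ± 3.35 in Detergent B, with log2 fold changes of 2.66 (SE 0.77; edgeR adjusted p = 0.09342) and 2.37 (SE 0.76; adjusted p = 0.08307). 2010005H15Rik had 0.237 ± 0.237, 1.41 ± 1.3 and 1.35 ± 0.55 CPM, with log2 fold changes of 2.40 (SE 0.71; adjusted p = 0.09996) and 2.35 (SE 0.71; adjusted p = 0.07214). Neither passed, and their estimates were of the size of those of the abundant stefins. The antisense gene Gm15845, which overlaps BC100530 in position and shares stretches with it, had 0.378 ± 0.432, 1.05 ± 0.432 and 1.27 ± 0.867 CPM. The pseudogene Gm7260 had 14 counts in all. The other genes of the interval are small nuclear RNA genes with at most 1 count each.

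Among the other cystatins 7 were tested, and these include the stefin genes Gm5416 and 2010005H15Rik of the interval. Of the 7, 0 passed in either contrast with PBS, with 5 of 7 positive in Detergent A and 6 of 7 in Detergent B. Cstb, the cytosolic stefin B found in most cells, had 147 ± 16.5 CPM in PBS, 204 ± 55 in Detergent A and 215 ± 33.7 in Detergent B, with log2 fold changes of 0.48 (SE 0.15; edgeR adjusted p = 0.122) and 0.55 (SE 0.15; adjusted p = 0.05607). Cst3, the secreted cystatin C, had 415 ± 89.5, 420 ± 106 and 493 ± 111 CPM, with log2 fold changes of 0.02 (SE 0.18; adjusted p = 0.9716) and 0.25 (SE 0.18; adjusted p = 0.4189).

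The proteases that cystatins inhibit were measured next. Of 11 cysteine cathepsins and legumain tested, 0 passed in Detergent A, where 0.0535% of all genes passed as higher. In Detergent B 1 passed as higher, where 1.97% of all genes did. That gene was Ctsh, an aminopeptidase, at 1.416-fold (log2 0.50, SE 0.11, edgeR adjusted p = 0.02773). The largest estimate in Detergent B, picked after the values were seen, was that of Ctsk, a collagen-degrading cathepsin, at 1.528-fold (log2 0.61, SE 0.18; edgeR adjusted p = 0.06956). Against Detergent A, 0 of the 11 passed as higher in Detergent B, as did 0% of all genes. All 11 estimates were positive, with a median log2 fold change of 0.25. The sign was not particular to this list, since 12 of 12 differentiated keratinocyte markers were also positive, while 0 of 4 stress keratins were. Ctsl, a target of cystatin M/E, had 430 ± 53.6 CPM in PBS, 528 ± 83.5 in Detergent A and 580 ± 81.3 in Detergent B, with edgeR adjusted p of 0.1883 and 0.05222. Ctsb had 1084 ± 145, 1044 ± 159 and 1210 ± 153 CPM, and Lgmn, encoding legumain, 148 ± 26.3, 142 ± 45.3 and 183 ± 35.9 CPM. Ctsd, an aspartic protease that cystatins do not inhibit, rose 1.429-fold in Detergent B (edgeR adjusted p = 0.02468) and was 1.326-fold in Detergent A (adjusted p = 0.07748). The summed cathepsins and legumain were at 2384 ± 260 CPM in PBS, 2421 ± 278 in Detergent A and 2837 ± 380 in Detergent B. The stefin sums were 307, 1065 and 1632 CPM in the same groups. Neither sum is scaled to transcript length, so each can be compared between groups but not with the other.

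Of the 4 epidermal transglutaminases, 0 passed in either detergent. Tgm3, whose activation cystatin M/E controls, had 35.9 ± 16.9 CPM in PBS, 58 ± 17.7 in Detergent A and 73.7 ± 20.3 in Detergent B, with edgeR adjusted p of 0.2244 and 0.06252. Tgm1, the membrane-bound enzyme that cross-links the envelope, had 148 ± 18.5, 190 ± 55.1 and 207 ± 39.6 CPM, with adjusted p of 0.2521 and 0.1023.

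Inhibitors of serine and other proteases in the cornified layer were listed for comparison. Of 8 tested, 0 passed as higher in Detergent A, where 0.0535% of all genes did, and all 8 estimates were positive. In Detergent B 4 passed as higher, where 1.97% of all genes did. Serpinb12 rose from 46.8 ± 19.8 to 163 ± 55 CPM (3.492-fold, edgeR adjusted p = 0.0114), Spink7 from 3.63 ± 3.16 to 36.5 ± 14.6 CPM (9.903-fold, adjusted p = 0.01703) and Serpinb3a from 1.11 ± 0.677 to 7.83 ± 5.66 CPM (6.871-fold, adjusted p = 0.0178). Wfdc12 rose from 4.29 ± 3.21 to 22.8 ± 8.83 CPM (5.249-fold, adjusted p = 0.02235). The median log2 fold change of the 8 was 1.47 in Detergent B and 1.23 in Detergent A, beside 2.41 and 1.89 for the 6 tested stefins.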

How the data were processed

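Skin RNA was sequenced in 18 libraries, and the deposited files give whole-number read counts per Ensembl gene, not normalised. The submitters' processing notes name STAR, featureCounts and GRCm38.p5. The sources used here do not state versions, annotation release, strand setting or how reads fitting several places were handled. Of 41605 identifiers, 41519 matched GENCODE M21. Groups came from the labels' treatment field, and no library was left out. No pair of libraries agreed within sampling noise (chi-square per gene of at least 9.363).

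The test was edgeR 4.0.16 (R 4.3.3): default filter by group (16836 genes), TMM, a robust quasi-likelihood fit to all 18 libraries with 15 residual degrees of freedom, and Benjamini-Hochberg adjustment over all genes, threshold 0.05. SE is the log2 fold change divided by the root of F. log2 CPM used a prior count of 2, and sums of markers a pseudocount of 0.1 CPM. Relations with marker sums used 100000 permutations within groups. Coding identity came from global alignments with Biopython 1.88 of GENCODE M21 coding transcripts that RefSeq lists. End gaps were free, so identity is over the aligned overlap, and promoter windows were compared in the same way. Protein identity, which was planned, was not used here for want of a protein table. Upper limits at a count of 0 use 3 counts, and 95% intervals the 15 degrees of freedom. The fit was tested on simulated data.

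The members, gene lists and tests were chosen with earlier results of these data known. Genes named are the 8 members, up to 3 per other list past the threshold by p, and 8 fixed cystatin, protease and transglutaminase genes. Also named are the genes of the stefin interval and the 5 genes with the highest r for Stfa3, BC100530 and Cst6. Those 5 were taken among genes with a mean of at least 1 CPM. The same was done, unplanned, for Stfa2l1. Alternatives were DESeq2 1.42.0, limma 3.58.1 voomWithQualityWeights, other scaling and filters, the 12 libraries compared, a replicate block, a hair keratin covariate, a fit that was not robust, each library left out, and the stefins summed. The coding transcript length was added after seeing the data.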

Additional observations from a re-analysis of the deposited data

Results flagged for a closer look

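In 4 of 27 groups of 6 values tested, 1 library stood apart from the other 5 by a gap of more than 0.625 of the group's range on the log2 scale, where chance gives about 1 in 20 groups. Detergent B replicate 3 was low in 3 of them, which share counts. It had 36.5 CPM of Stfa1, against 109 to 209 in the other Detergent B libraries. It had 348 CPM of BC100530, against 754 to 1041, and 801 CPM of the 7 summed stefins, against 1462 to 1927. Its hair keratins summed to 173 CPM and its stress keratins to 2269 CPM, the highest and the lowest of the Detergent B group, and their part was not tested. PBS replicate 6 had the highest Cst6 of its group, 1598 CPM against 812 to 979 in the other 5. Its hair keratins summed to 14.6 CPM, against 208 to 451 in the other PBS libraries, and their part was not tested.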

How the results depend on the processing

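For Detergent A against PBS the count of members past the threshold was 0 as reported (32 of all genes called), 5 with DESeq2 (797), 5 with voomWithQualityWeights (3914), 3 with total counts only (220), 2 with CPM above 1 in at least 6 libraries (75), and 0 to 5 with each library left out. For Detergent B it was 5 as reported (514 of all genes), 3 with no filter on low counts (251), 3 with the replicate block (377; Stfa1 and Stfa2 lost), 0 with the hair keratin covariate (0), and 1 to 5 with each library left out. For Detergent B against Detergent A it was 0 in every setting run. The cause of these moves was not tested. The direction of Stfa1, Stfa2, Stfa3, BC100530 and BC117090 against PBS was the same in every setting run. The log2 fold changes that changed sign were those of Stfa2l1 in Detergent A (-0.25 with voom) and in Detergent B (-0.65 with voom, -0.43 with the hair covariate, and -0.93 to 0.50 with each library left out, with -0.04 and -0.05 without PBS replicates 5 and 6), and those of Cst6 in Detergent A (-0.0089 with total counts only, -0.52 with the hair covariate, -0.0265 to 0.287 with each library left out, lowest without Detergent A replicate 4), in Detergent B (-0.39 with the hair covariate) and between the detergents (-0.0012 to 0.252 with each library left out, lowest without Detergent A replicate 2). Same-numbered libraries of different groups had correlations of their deviations from -0.348 to 0.546, with 8 of 18 pairs over 0.1. Pairs with different numbers were not set beside these, so whether the numbers pair libraries is not settled. The main fit left pairing out. The replicate block gave 0 members in Detergent A, with 0 of all genes called. With the 7 stefins as 1 feature there is no count of members. Stfa2l1 was not tested under every filter, and its depth and that of Gm5483 limit what can be seen in them.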
